A study of Homo sapiens with 12 samples.

Results

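The genes described here are 58 human genes that encode the machinery copying chromosomal DNA and the enzymes that supply its nucleotides. They were taken by gene symbol from a fixed list in 9 roles: 8 of origin recognition and licensing, 8 MCM proteins, 10 of origin firing, 9 polymerase and primase subunits, 9 of the sliding clamp, its loader and the single-strand binding protein, 3 of Okazaki fragment maturation, 4 of fork protection, 5 of nucleotide supply and 2 of chromatin assembly. All 58 were among the 16384 genes of the deposited count tables, and all 58 passed the filter on low counts that 12645 genes passed. The lowest count of any of them in any library was 28 reads.

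RNA came from MDA-MB-231, an established human line of triple-negative breast cancer, labelled wild type in every group. There were 12 libraries in 4 groups of 3: control cells given the vehicle DMSO, cells given CAR at 10 µmol/L, cells given JQ1 at 25 µmol/L, and the Combination group given both agents. CAR is cardamonin, a plant chalcone, by the series title, and JQ1 keeps the bromodomain and extraterminal (BET) proteins off acetylated chromatin. The labels give neither the length of treatment nor whether the replicates of a group were grown apart, so the spread behind each p-value may be technical. All groups are of this single line, so nothing here speaks of other cells.

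Replication starts when the origin recognition complex, CDC6 and CDT1 load the ring of MCM2 to MCM7 onto DNA, a step called licensing. The kinase of CDC7 and DBF4 and the kinase of cyclin E and CDK2 then recruit CDC45 and the GINS complex, which turn the ring into a working helicase. Primase and polymerase alpha lay down primers, polymerases epsilon and delta extend them on a PCNA clamp loaded by replication factor C, and ribonucleotide reductase and thymidylate synthase make the building blocks. Many of these genes are transcribed in late G1 and S phase under E2F factors. In bulk RNA, fewer cells in those phases and less RNA per cell cannot be told apart.

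To show the letters that E2F factors are known to bind, the RefSeq promoter windows of the GRCh38.p14 build (250 bases before to 50 after each start) were searched for TTTCCCGC, TTTGGCGC, TTTCGCGC and TTTGCCGC on both strands, overlaps allowed. The motif letters and the genes printed were chosen after expression values had been seen. A window was found for 50 of the 58 genes (all but MCM4, MCM5, GINS4, CCNE2, CDK2, POLD3, RPA2 and RPA3). Of those 50 genes, 24 (48.0%) held a match, against 690 of 10253 tested genes with a window (6.73%). Counted by window, 24 of the 65 windows of these genes (36.9%) held a match. Of all 35116 windows, those of untested genes included, 1164 did (3.31%). Stretches of up to 200 bases from before the RefSeq start that no GENCODE v29 exon covers are printed 5′ to 3′ on the gene's strand. Capitals mark the matches, and overlapping matches run together. MCM3, MCM6, POLA1, PCNA and CDC7 are shown because they hold matches. Their JQ1 changes ran from -2.15 (MCM3) to -0.56 (CDC7). Genes with a match that fell further, down to -3.40, are not printed. MCM10 (-3.18) and RFC1 (-0.34) are shown because they hold none and differ widely in their change. The printed genes thus do not stand for the changes of genes with and without a match.
MCM3: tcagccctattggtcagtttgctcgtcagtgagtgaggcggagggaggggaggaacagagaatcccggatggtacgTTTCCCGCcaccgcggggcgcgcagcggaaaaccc
MCM6: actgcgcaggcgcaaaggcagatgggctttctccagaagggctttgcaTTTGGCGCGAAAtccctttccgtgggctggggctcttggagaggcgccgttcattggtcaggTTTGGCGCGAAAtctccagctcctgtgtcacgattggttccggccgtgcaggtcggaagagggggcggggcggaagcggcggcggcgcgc
POLA1: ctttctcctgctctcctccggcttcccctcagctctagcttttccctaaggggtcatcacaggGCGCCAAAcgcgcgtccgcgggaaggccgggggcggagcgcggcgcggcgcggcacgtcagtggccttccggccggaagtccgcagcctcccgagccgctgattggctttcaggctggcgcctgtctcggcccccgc
PCNA: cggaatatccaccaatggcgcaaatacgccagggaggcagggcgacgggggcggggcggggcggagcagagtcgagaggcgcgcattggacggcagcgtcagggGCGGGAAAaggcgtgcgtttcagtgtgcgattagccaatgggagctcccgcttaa
CDC7: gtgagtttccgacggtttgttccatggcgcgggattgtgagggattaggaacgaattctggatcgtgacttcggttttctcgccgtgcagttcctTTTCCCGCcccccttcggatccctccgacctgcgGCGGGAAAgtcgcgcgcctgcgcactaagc
MCM10: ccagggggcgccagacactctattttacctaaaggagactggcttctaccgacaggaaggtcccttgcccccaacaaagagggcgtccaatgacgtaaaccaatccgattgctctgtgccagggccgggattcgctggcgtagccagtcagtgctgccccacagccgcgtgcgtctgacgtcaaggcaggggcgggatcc
RFC1: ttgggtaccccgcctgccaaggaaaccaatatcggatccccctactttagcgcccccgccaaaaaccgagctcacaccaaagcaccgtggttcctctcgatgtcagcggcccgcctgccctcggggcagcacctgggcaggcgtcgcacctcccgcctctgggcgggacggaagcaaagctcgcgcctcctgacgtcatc

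These stretches lie at chr6:52284882-52284992 on the minus strand for MCM3, chr2:135876444-135876643 (minus) for MCM6, chrX:24693718-24693917 (plus) for POLA1, chr20:5126627-5126785 (minus) for PCNA, chr1:91500949-91501107 (plus) for CDC7, chr10:13161354-13161553 (plus) for MCM10 and chr4:39366376-39366575 (minus) for RFC1. The CDC7 stretch lies inside the annotated gene, after the first exon of one of its transcripts and before the first exons of others, and the other 6 lie before the gene. The median log2 fold change under JQ1 was -1.79 among the 24 genes with a match, within a range of -3.40 to -0.28. It was -1.44 among the 26 without, within -3.36 to 0.00. Whether the matches bear on the response was not tested. A match is a description of the sequence and says nothing of binding.

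The libraries held 17449715 to 19754456 counts each. The level of a gene is its CPM, its count scaled to the library's total, and a floor of 3 counts equalled 0.152 to 0.172 CPM, for counting error only. Of the defining markers of the line, VIM, CD44, EGFR, AXL and CAV1 summed to 5959 to 6120 CPM in control, 5650 to 5763 with CAR, 2922 to 2984 with JQ1 and 2226 to 2360 with the Combination, and ESR1, PGR and CDH1 summed to at most 1.53 CPM. Summed markers of leukocytes (0.157 to 0.932 CPM) and endothelium (0.273 to 1.21 CPM) were near 0 in all 12 libraries. Of 4 fibroblast markers, DCN and LUM lay at or under 0.164 CPM in every library. With COL1A1 and PDGFRB, which makes up most of the sum, they summed to 40.0 to 41.8 CPM in control, 18.8 to 21.5 with CAR, 98.1 to 98.2 with JQ1 and 39.5 to 40.3 with the Combination. The part of these marker changes in the results was not tested. Control 3 stood apart: its deviation from its group followed transcript length with a Spearman rho across genes of -0.736, against 0.605 and 0.651 in control 1 and control 2 and -0.279 to 0.258 in the libraries given an agent. Its counts differed from the other controls by a chi-square per degree of freedom of 10.6 and 12.6, against 1.46 to 2.31 for every other replicate pair. Combination 1 held liver transcripts, 13 markers summing to 137 CPM against 1.42 to 3.84 CPM in the other 11 libraries. In TMM-scaled log2 CPM, Combination 3 lay above both of its group mates for 36 of the 58 genes, and its median deviation from their mean over all 58 was 0.08. With control 3 and Combination 1 both left out, calls among the 58 genes were 33 higher and 5 lower for CAR and 0 and 56 for JQ1. They were 2 and 54 for the Combination against control, 13 and 15 against JQ1 and 0 and 57 against CAR. For the interaction they were 7 and 22. The share over all tested genes was not taken in this setting, so these counts show only how the calls moved.

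The 58 genes together took 0.626 ± 0.00697% of all counts in control (SD, n = 3, as for all such values), 0.636 ± 0.00250% with CAR, 0.207 ± 0.00142% with JQ1 and 0.194 ± 0.00440% with the Combination. Calls are genes with an adjusted p under 0.05 in the quasi-likelihood test of edgeR, adjusted by Benjamini-Hochberg over all 12645 genes. Log2 fold changes are given with standard errors worked back from that test, as the absolute log2 fold change over the square root of its F statistic. Under JQ1, 56 of the 58 genes fell and 0 rose, where 42.2% of all tested genes were called lower and 41.5% higher. Of these, 41 fell at least 2-fold, where the background was 18.2%, and the median of all 58 was -1.61 against -0.01 for all tested genes. All 58 had every JQ1 library below every control library in CPM and 0 had them above, against 47.2% and 35.8% of all tested genes. Among the 58 were ORC2 and ORC5, whose fitted changes did not pass.

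Under CAR, 28 of the 58 genes rose and 7 fell, beside 27.3% of all genes called higher and 30.1% called lower, and 0 of the 58 fell at least 2-fold (3.45% of all genes). The median was 0.12, against -0.02 over all genes. Total-count scaling gave 21 higher and 10 lower, upper-quartile scaling 22 and 10, and a correction for transcript length 25 and 12. The share over all genes, which scaling also moves, was not taken in these settings. With the Combination against control, 55 genes fell, 41 of them at least 2-fold, and 1 (ORC5) rose, where 42.8% of all genes were called lower, 20.3% lower by at least 2-fold and 42.6% higher. The median was again -1.61. Scaling to total counts moved the median of all genes by -0.12 for JQ1 and by -0.21 for the Combination against control, so small changes in these comparisons hang on the scaling and larger ones exceed that shift. For CAR against control it moved by -0.06, and the median of the 58 genes went from 0.12 to 0.05. For the Combination against JQ1 it moved by -0.09, and the median of the 58 went from 0.02 to -0.07.

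**Figure D1:**
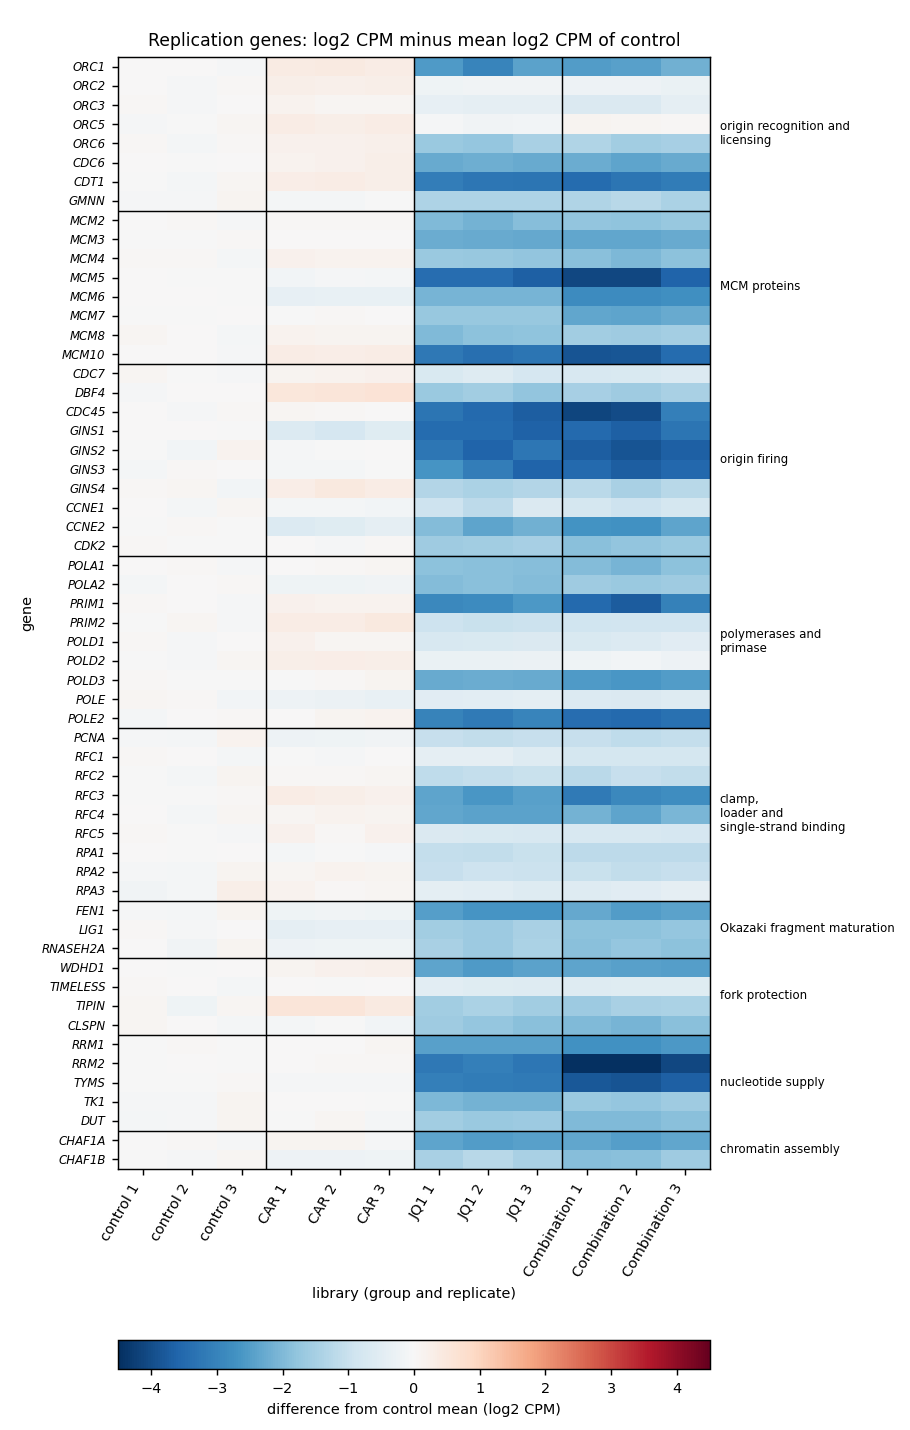
Each row is a gene, grouped by role, and each column a library. Colour gives the log2 CPM of that library minus the mean log2 CPM of control, from blue (lower) to red (higher). JQ1 and Combination columns are blue for nearly all 58 genes, palest for ORC2, ORC5 and POLD2 and darkest for RRM2, MCM5 and CDC45, and CAR columns are pale.

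In origin recognition and licensing, JQ1 lowered 6 of 8 genes, beside 42.2% of all tested genes. The subunits of the origin recognition complex parted from each other. ORC1, the large ATPase subunit, stood at 38.8, 39.2 and 37.1 CPM in control, 49.4, 51 and 48.2 with CAR, 6.58, 4.84 and 7.16 with JQ1 and 6.69, 7.01 and 8.52 with the Combination. ORC2, a core subunit, stood at 47.7, 46 and 49.1 CPM in control, 56.6, 55.8 and 57.4 with CAR, 41.2, 42.9 and 42.8 with JQ1 and 40.1, 40.8 and 39 with the Combination. The ORC1 libraries with JQ1 and with the Combination overlapped and lay far below control, while those of ORC2 lay only a little below it.

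ORC1 fell by JQ1 with a log2 fold change of -2.51 ± 0.09 (edgeR adjusted p = 2.03e-16), which is 5.7-fold. ORC2 did not pass, at -0.05 ± 0.05 (edgeR adjusted p = 0.33). It passed as lower with total-count scaling (-0.17), upper-quartile scaling (-0.11) and a length correction (-0.11). ORC3, another core subunit, stood at 39.4, 37 and 38.8 CPM in control, 42.7, 40.4 and 40.4 with CAR, 29.8, 28.7 and 29.1 with JQ1 and 24.7, 24.7 and 28.8 with the Combination, with a JQ1 change of -0.28 ± 0.06. ORC5, which also binds ATP in the complex, stood at 27.2, 27.3 and 29.3 CPM in control, 35.1, 33.4 and 35.3 with CAR, 26.8, 24.9 and 25.6 with JQ1 and 30.7, 29.9 and 29.2 with the Combination, with a JQ1 change of 0.00 ± 0.06 that did not pass (edgeR adjusted p = 0.984). ORC5 was thereby the member least moved by JQ1, and its Combination libraries were the only ones among the 58 genes to overlap control. The count ratio of ORC1 to ORC2 was 0.807 ± 0.0490 in control, 0.875 ± 0.0367 with CAR, 0.147 ± 0.0295 with JQ1 and 0.186 ± 0.0283 with the Combination, as a description of a pair chosen after its values were seen. ORC6 fell by JQ1 as well, at -1.50.

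CDC6 and CDT1 load the MCM ring onto origins. CDC6, an ATPase, stood at 162, 160.4 and 162 CPM in control, 180.4, 183 and 193 with CAR, 33.9, 35.2 and 33.9 with JQ1 and 34, 31.5 and 33.7 with the Combination. CDT1, which brings the MCM ring to the origin, stood at 39.5, 37.9 and 43.1 CPM in control, 48.8, 50.1 and 47.7 with CAR, 4.68, 4.19 and 4.13 with JQ1 and 3.62, 4.07 and 4.59 with the Combination. Geminin (GMNN), the protein that binds and blocks CDT1, stood at 64.8, 64.3 and 73.5 CPM in control, 62.8, 63 and 66.4 with CAR, 25.7, 25.6 and 26 with JQ1 and 26.4, 28.6 and 25.3 with the Combination. In all 3 genes the JQ1 and Combination libraries overlapped each other and lay below control and CAR.

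The JQ1 change was -3.09 ± 0.08 for CDT1, -2.12 ± 0.04 for CDC6 and -1.27 ± 0.06 for GMNN, so the licensing factor had fallen further than its inhibitor. The count ratio of CDT1 to GMNN was 0.609, 0.590 and 0.587 in the control libraries, 0.778, 0.794 and 0.719 with CAR, 0.182, 0.164 and 0.159 with JQ1, and 0.137, 0.142 and 0.181 with the Combination. The ratio thus lay above control in every CAR library and below it in every JQ1 and Combination library. Counts measure transcripts only, and both proteins are also controlled by degradation.

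All 8 MCM genes fell at least 2-fold under JQ1, beside 18.2% of all tested genes, with a median of -1.94. MCM2 to MCM7 form the helicase ring in equal numbers. Levels per kilobase were taken over the merged exons of all protein-coding transcripts of a gene, which can exceed the length of any single transcript. In control they ran from 36.7 CPM per kb for MCM5 to 136 CPM per kb for MCM3. With JQ1 they ran from 3.23 ± 0.297 for MCM5 to 31.1 ± 0.186 for MCM7. MCM2, whose tail binds histones, stood at 170.4, 174 and 163 CPM in control, 177, 175 and 176 with CAR, 42.7, 38.3 and 44.4 with JQ1 and 49.7, 48.7 and 52.4 with the Combination. MCM5 stood at 132, 129 and 129 CPM in control, 120.0, 124 and 121 with CAR, 11.9, 12.1 and 10.2 with JQ1 and 7.56, 7.6 and 10.7 with the Combination. MCM6 stood at 194, 195 and 193 CPM in control, 150.1, 154 and 153 with CAR, 45.1, 45 and 45.8 with JQ1 and 27, 27.4 and 28.6 with the Combination. MCM5 was the ring subunit most lowered by JQ1, by 10.4-fold, against 3.73-fold for MCM2 and 3.94-fold for MCM6.

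MCM7 stood at 368, 369.9 and 377 CPM in control, 371, 381 and 373 with CAR, 113, 114 and 114 with JQ1 and 72.7, 72.2 and 77.5 with the Combination. Its Combination libraries lay wholly below its JQ1 libraries, as they did for MCM6, whereas those of MCM2 lay wholly above. The ratio of MCM5 to MCM2 counts was 0.767 ± 0.0259 in control, 0.690 ± 0.0175 with CAR, 0.275 ± 0.0433 with JQ1 and 0.171 ± 0.0290 with the Combination. Of the ring subunits not given by library, MCM3 changed by -2.15 ± 0.04 and MCM4 by -1.60 ± 0.05 under JQ1.

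A pair of MCM proteins act outside the ring. MCM8, a helicase of recombination repair, stood at 125, 117 and 108 CPM in control, 131, 126 and 127 with CAR, 29.1, 32.5 and 33.3 with JQ1 and 39.8, 38.8 and 40.2 with the Combination. MCM10, which helps start the helicase at the fork, stood at 68, 69 and 66 CPM in control, 86.3, 82.5 and 85 with CAR, 7.21, 6.42 and 6.93 with JQ1 and 4.55, 4.71 and 6.06 with the Combination. MCM10 fell by 9.07-fold with JQ1 and MCM8 by 3.4-fold.

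**Figure D2:**
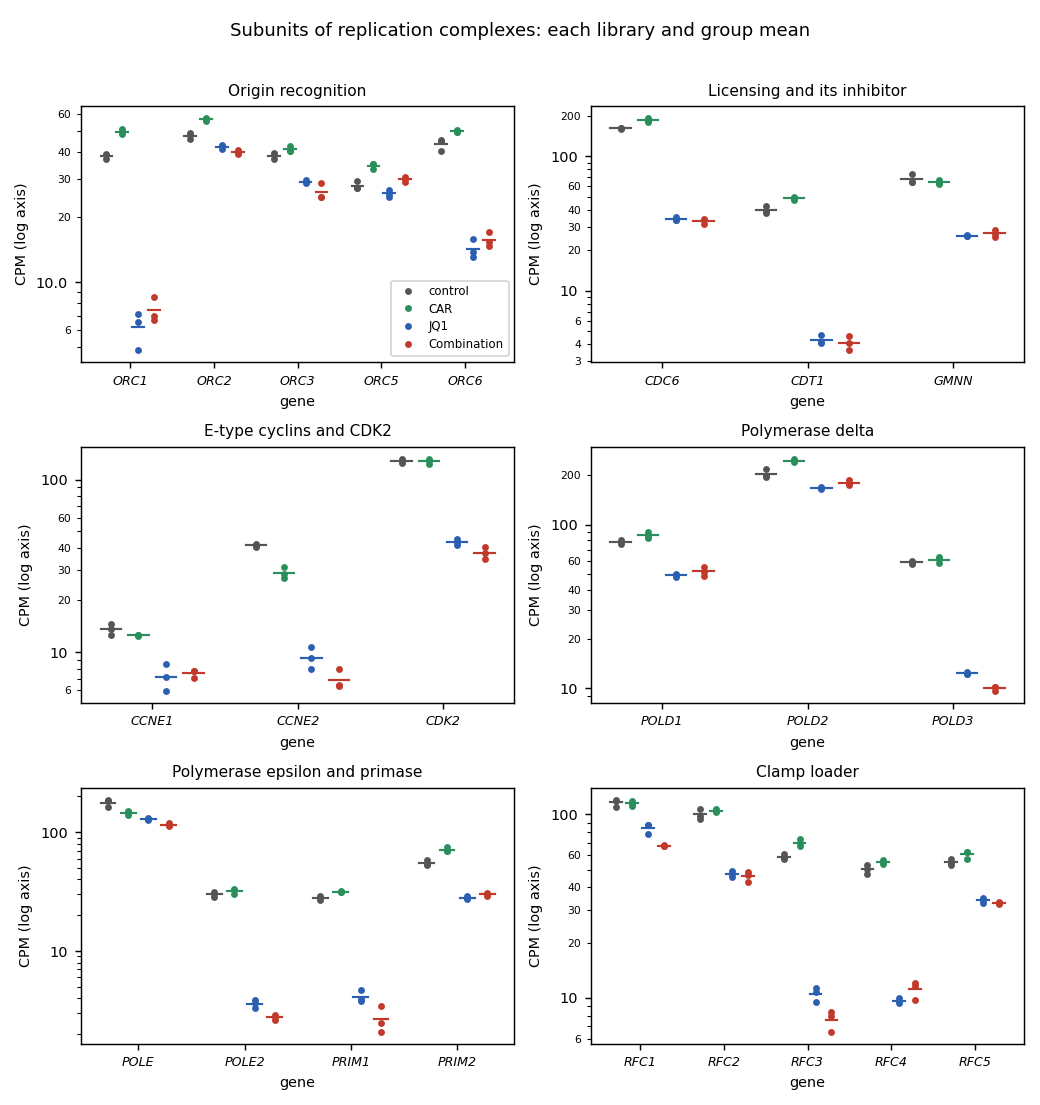
Points are libraries and bars group means, in CPM on a log axis, for subunits of 6 sets of replication factors in the 4 groups. Within a complex the subunits part under JQ1: ORC1, CDT1, POLD3, POLE2, PRIM1 and RFC3 drop far, while ORC2, ORC5, POLD2, POLE and RFC1 lie closer to control.

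All 10 origin firing genes fell under JQ1 (42.2% of all tested genes), 8 of them at least 2-fold (18.2%). CDC7, the kinase subunit, stood at 50.6, 47.6 and 45.8 CPM in control, 52.3, 53.2 and 54.3 with CAR, 29.6, 32 and 28.6 with JQ1 and 29, 30.1 and 31.6 with the Combination. DBF4, its activating partner, stood at 64.3, 67.1 and 67.5 CPM in control, 95.3, 96.5 and 101 with CAR, 21, 22.4 and 19.4 with JQ1 and 23.8, 22 and 24.1 with the Combination. DBF4 had the highest CAR change of the 58 genes, 0.62 ± 0.05 (edgeR adjusted p = 5.23e-10), and all 3 CAR libraries lay above all 3 controls for both partners. The JQ1 change was -0.56 ± 0.06 for CDC7 and -1.54 ± 0.06 for DBF4, and the count ratio of DBF4 to CDC7 was 1.39 ± 0.103 in control, 1.83 ± 0.0233 with CAR, 0.697 ± 0.0163 with JQ1 and 0.771 ± 0.0453 with the Combination.

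The helicase activators were among the most lowered genes. CDC45 stood at 48.9, 46.9 and 50.8 CPM in control, 51.7, 50.9 and 48.9 with CAR, 5.05, 4.35 and 3.72 with JQ1 and 2.8, 2.996 and 5.73 with the Combination. GINS1, a subunit of the GINS complex, stood at 43.7, 44.3 and 43 CPM in control, 28.6, 26.1 and 29.9 with CAR, 3.95, 3.97 and 3.5 with JQ1 and 3.89, 3.42 and 4.42 with the Combination. GINS2 stood at 44, 41.2 and 49.5 CPM in control, 43.3, 44.4 and 45.8 with CAR, 4.73, 3.65 and 4.7 with JQ1 and 3.4, 2.996 and 3.55 with the Combination. With JQ1 they fell by 10.2-fold, 10.5-fold and 9.48-fold. GINS1 had the largest fall of all 58 genes under JQ1.

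GINS4, a further subunit of the same complex, stood at 27.3, 28.4 and 24.3 CPM in control, 33.1, 36.3 and 33.7 with CAR, 10.7, 10.01 and 10.7 with JQ1 and 11.6, 9.79 and 11.1 with the Combination. Its JQ1 change was -1.23 ± 0.08, smaller than that of GINS1, GINS2 and GINS3 (-2.93 ± 0.13). The GINS genes also parted under CAR, where GINS1 fell (-0.57 ± 0.06) and GINS4 rose (0.43 ± 0.07), and no CAR library overlapped control in either gene. GINS2 and GINS3 did not pass under CAR.

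Cyclin E, which activates CDK2 at the start of S phase, is encoded by CCNE1 and CCNE2. CCNE1 stood at 13.6, 12.6 and 14.5 CPM in control, 12.6, 12.6 and 12.3 with CAR, 7.15, 5.93 and 8.54 with JQ1 and 7.78, 7.06 and 7.81 with the Combination. CCNE2 stood at 41, 42.6 and 40.9 CPM in control, 27, 28.3 and 31.1 with CAR, 10.6, 7.95 and 9.28 with JQ1 and 6.47, 6.31 and 7.97 with the Combination. CCNE2 fell by 4.11-fold under JQ1 and CCNE1 by 1.74-fold, and counts of CCNE2 were 3.08 ± 0.288 times those of CCNE1 in control, 2.31 ± 0.198 times with CAR, 1.30 ± 0.201 times with JQ1 and 0.915 ± 0.0968 with the Combination. CCNE2 shares 1629 of its 3432 exon bases with INTS8 on the opposite strand, and INTS8 stood at 59.2 CPM in control, 61.1 with CAR, 110.02 with JQ1 and 117 with the Combination. The strand setting of the counting is not stated in the labels, and the part of INTS8 reads in CCNE2 was not tested. CDK2 itself fell under JQ1 by 2.71-fold.

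The 9 polymerase and primase genes all fell under JQ1 (42.2% of all tested genes), 5 of them at least 2-fold (18.2%). Subunits of the same enzyme parted. PRIM1, the catalytic subunit of primase, stood at 28.9, 28.4 and 26.9 CPM in control, 31.9, 31.6 and 31.1 with CAR, 3.79, 3.92 and 4.7 with JQ1 and 2.47, 2.09 and 3.44 with the Combination. PRIM2, its regulatory partner, stood at 53.8, 58.1 and 53.4 CPM in control, 69.6, 69.1 and 74.8 with CAR, 29, 27.4 and 27.9 with JQ1 and 29.3, 30.7 and 30.03 with the Combination. POLA2, the accessory subunit of polymerase alpha, stood at 54.4, 58.1 and 59.9 CPM in control, 50.6, 49.97 and 51.8 with CAR, 15, 15.5 and 15 with JQ1 and 19, 18.2 and 18.7 with the Combination. PRIM1 fell by 6.25-fold, PRIM2 by 1.8-fold and POLA2 by 3.49-fold under JQ1, and in all 3 the JQ1 libraries lay apart from control. The ratio of PRIM1 to PRIM2 counts went from 0.509 ± 0.0247 in control and 0.444 ± 0.0241 with CAR to 0.147 ± 0.0193 with JQ1 and 0.0890 ± 0.0236 with the Combination.

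POLD1, the catalytic subunit of the lagging-strand polymerase delta, stood at 81, 76.1 and 78.5 CPM in control, 90.5, 84.2 and 83.3 with CAR, 47.9, 49.1 and 49.8 with JQ1 and 48.5, 51.2 and 55.3 with the Combination. POLD2, an accessory subunit, stood at 199, 194 and 218 CPM in control, 242, 252 and 243 with CAR, 164, 167 and 169 with JQ1 and 179, 188 and 174 with the Combination. POLD2 changed by -0.17 ± 0.04 under JQ1 and POLD1 by -0.56 ± 0.05, whereas POLD3, the accessory subunit that binds PCNA, changed by -2.13 ± 0.06. The ratio of POLD3 to POLD1 counts was 0.747 ± 0.0197 in control, 0.711 ± 0.0584 with CAR, 0.252 ± 0.00503 with JQ1 and 0.193 ± 0.0128 with the Combination.

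POLE, the catalytic subunit of the leading-strand polymerase epsilon, stood at 188, 183 and 162 CPM in control, 151, 147 and 141 with CAR, 126, 128 and 131 with JQ1 and 115, 113 and 119.6 with the Combination. POLE2, its accessory subunit, stood at 28.4, 30.1 and 31.3 CPM in control, 30.5, 32.6 and 33.1 with CAR, 3.68, 3.32 and 3.84 with JQ1 and 2.8, 2.62 and 2.89 with the Combination. The JQ1 change was -0.35 ± 0.05 for POLE and -2.93 ± 0.09 for POLE2, so POLE2 fell much further than the catalytic subunit. Of the other accessory subunits of this enzyme, which are not among the 58 and were chosen after their values were seen, POLE3 fell (-1.20 ± 0.05) and POLE4 rose (1.02 ± 0.06). Counts of POLE2 were 0.170 ± 0.0213 of those of POLE in control, 0.220 ± 0.0169 with CAR, 0.0282 ± 0.00195 with JQ1 and 0.0239 ± 0.000583 with the Combination.

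The clamp, loader and single-strand binding genes fell least, with a JQ1 median of -0.94 over 9 genes. Of the 9, 2 were at least 2-fold lower, close to the 18.2% of all tested genes. PCNA, the sliding clamp, stood at 222, 218 and 255 CPM in control, 198, 201 and 208 with CAR, 112, 107 and 112 with JQ1 and 112, 105 and 109 with the Combination. RFC1, the large subunit of the loader, stood at 120.4, 118 and 110.1 CPM in control, 114, 112 and 119 with CAR, 88.1, 87.4 and 77.9 with JQ1 and 67.5, 68 and 66.9 with the Combination. RFC3, a small subunit, stood at 57.8, 57.4 and 60.5 CPM in control, 73.1, 70.1 and 67.3 with CAR, 11.4, 9.52 and 10.7 with JQ1 and 6.52, 7.92 and 8.35 with the Combination. RFC3 fell by 5.11-fold, PCNA by 1.93-fold and RFC1 by 1.27-fold under JQ1, and all JQ1 libraries of the 3 genes lay below control. The ratio of RFC3 to RFC1 counts was 0.505 ± 0.0390 in control, 0.612 ± 0.0396 with CAR, 0.125 ± 0.0147 with JQ1 and 0.113 ± 0.0145 with the Combination.

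Of the other small loader subunits, RFC4 fell far (-2.27 ± 0.07), and RFC2 (-0.96 ± 0.05) and RFC5 (-0.56 ± 0.05) less so. RPA3, the smallest subunit of the single-strand binding protein, stood at 29.4, 30.5 and 39 CPM in control, 36.1, 34 and 34.8 with CAR, 24.2, 23.5 and 22.1 with JQ1 and 21.8, 23.2 and 24.5 with the Combination. Control 3 was the highest of these libraries. The JQ1 change was -0.38 ± 0.08 for RPA3, -0.94 ± 0.03 for RPA1 and -0.86 ± 0.06 for RPA2.

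All 3 genes of Okazaki fragment maturation fell at least 2-fold under JQ1, beside 18.2% of all tested genes. FEN1, the flap nuclease, stood at 159.6, 156 and 179 CPM in control, 145, 148 and 145 with CAR, 29.9, 26.3 and 26.2 with JQ1 and 33.4, 28.6 and 30.9 with the Combination. LIG1, the ligase that seals the fragments, stood at 79.1, 74.6 and 77.5 CPM in control, 58.9, 59.99 and 59.2 with CAR, 25.9, 25 and 28.3 with JQ1 and 21.3, 21.7 and 22.9 with the Combination. RNASEH2A, the catalytic subunit of the RNase H2 that removes RNA from DNA, stood at 41.8, 37.4 and 45.1 CPM in control, 35.5, 36.5 and 36.5 with CAR, 15.1, 13.4 and 15.4 with JQ1 and 11.2, 12.4 and 11.5 with the Combination. FEN1 fell by 5.52-fold, LIG1 by 2.69-fold and RNASEH2A by 2.61-fold. In all 3 the CAR libraries also lay below every control library, as in 38.3% of all tested genes. Of the 3 differences, that of LIG1 passed (-0.31 ± 0.05).

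The fork protection genes all fell under JQ1, beside 42.2% of all tested genes. WDHD1, which ties polymerase alpha to the helicase, stood at 83.4, 81 and 82.7 CPM in control, 89.5, 94.9 and 96.1 with CAR, 16, 14.1 and 15.4 with JQ1 and 15.8, 15 and 14.6 with the Combination. TIMELESS, a scaffold of the fork protection complex, stood at 85.9, 83.5 and 77.4 CPM in control, 83.9, 81.1 and 84 with CAR, 58.9, 56.9 and 55.4 with JQ1 and 55.2, 56.4 and 56.7 with the Combination. TIPIN, the partner it binds, stood at 19.1, 15.7 and 19.1 CPM in control, 26.5, 26.2 and 23.9 with CAR, 6.1, 6.75 and 6.13 with JQ1 and 5.81, 6.58 and 6.61 with the Combination. TIPIN fell by 2.62-fold under JQ1, against 1.33-fold for TIMELESS. CAR raised TIPIN (0.57 ± 0.08), with no overlap of libraries, and left TIMELESS overlapping control. CLSPN, the checkpoint mediator at forks, changed by -1.62 ± 0.07 under JQ1.

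Among the nucleotide supply genes, all 5 fell at least 2-fold under JQ1, beside 18.2% of all tested genes. Their median was -2.32, the lowest of the 9 roles. RRM1, the large subunit of ribonucleotide reductase, stood at 291, 304 and 293 CPM in control, 299, 299 and 314 with CAR, 54.5, 54.5 and 54.5 with JQ1 and 44.6, 44.9 and 48.9 with the Combination. RRM2, its small S-phase subunit, stood at 187, 190.1 and 187 CPM in control, 191, 197 and 194 with CAR, 20.3, 22.1 and 19.9 with JQ1 and 8.11, 7.97 and 11.1 with the Combination. The JQ1 and Combination libraries of RRM2 did not overlap, and the Combination libraries were the lower. RRM2 had fallen by 8.33-fold with JQ1 and 18-fold with the Combination, the largest change of any member in any comparison with control. RRM1 had fallen by 5.002-fold and 5.56-fold.

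The ratio of RRM2 to RRM1 counts was 0.641, 0.625 and 0.639 in control, 0.641, 0.659 and 0.619 with CAR, 0.373, 0.406 and 0.365 with JQ1, and 0.182, 0.177 and 0.227 with the Combination. Control and CAR overlapped, JQ1 lay below both and the Combination below JQ1. RRM2B, the p53-inducible small subunit and not among the 58, moved the other way, at 53.3, 58.6 and 52.6 CPM in control, 39.5, 41.3 and 39.2 with CAR, 91.3, 86.7 and 88.3 with JQ1 and 78.9, 73.6 and 74.7 with the Combination. Counts of RRM2 were 3.43 ± 0.167 times those of RRM2B in control, 4.86 ± 0.0929 times with CAR, 0.234 ± 0.0180 with JQ1 and 0.120 ± 0.0249 with the Combination.

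TYMS, which makes thymidylate, stood at 347, 346 and 365 CPM in control, 337, 337 and 336 with CAR, 41.8, 39.8 and 38.6 with JQ1 and 24.9, 23.6 and 27.9 with the Combination. TK1, which salvages thymidine, stood at 221, 219 and 247 CPM in control, 233, 233 and 224 with CAR, 55.9, 52.7 and 52.7 with JQ1 and 71.2, 68.1 and 75.6 with the Combination. DUT, which breaks down dUTP, stood at 56, 56.5 and 64.4 CPM in control, 58.1, 62 and 55.9 with CAR, 19.9, 18.6 and 19.1 with JQ1 and 14.9, 14.7 and 16 with the Combination. TYMS fell by 8.1-fold under JQ1, TK1 by 3.92-fold and DUT by 2.83-fold. In control TYMS held the highest level per length of the 58 genes, 212 ± 6.58 CPM per kb, and with JQ1 it stood at 24.1 ± 0.971 CPM per kb, below PCNA (75.0 ± 1.80) and POLD2 (72.6 ± 1.12). TYMS shares 967 of its 1662 exon bases with ENOSF1 on the opposite strand, and ENOSF1 stood at 39.3 CPM in control, 29.7 with CAR, 41.2 with JQ1 and 32.4 with the Combination. The Combination libraries lay below JQ1 for TYMS and DUT and above JQ1 for TK1.

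**Figure D3:**
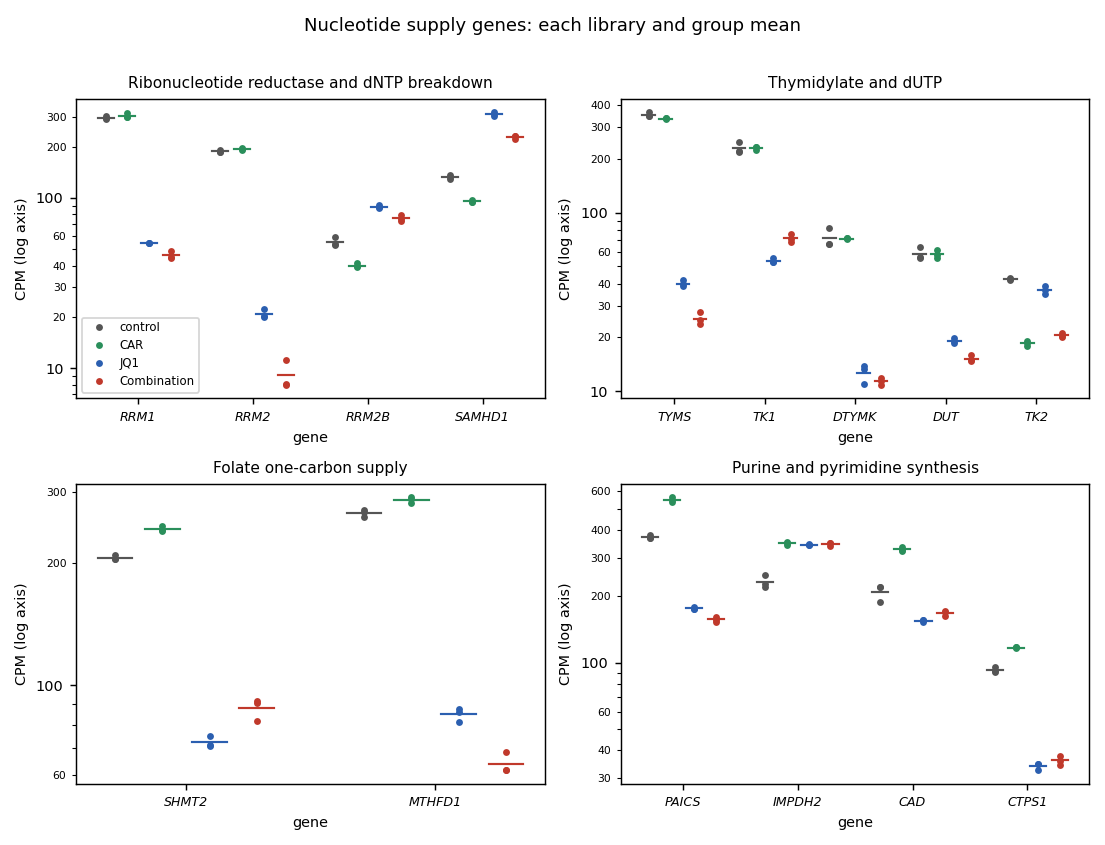
Points are libraries and bars group means, in CPM on a log axis, for nucleotide supply genes: RRM1, RRM2, TYMS, TK1 and DUT with other genes of the same supply. RRM2 and TYMS step down from control to JQ1 and again to the Combination, RRM2B and SAMHD1 lie above control with JQ1, and TK2 is lower in both groups given CAR.

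Chromatin assembly factor 1 places histones behind the fork. CHAF1A, its large subunit, stood at 58.3, 58.5 and 54.5 CPM in control, 61.8, 62.1 and 55 with CAR, 10.9, 9.96 and 10.5 with JQ1 and 11.2, 10.1 and 11.4 with the Combination. CHAF1B, the middle subunit, stood at 41.6, 40.03 and 44.3 CPM in control, 36.2, 36 and 36.5 with CAR, 15.4, 17.5 and 15.4 with JQ1 and 11.2, 11.3 and 13.8 with the Combination. CHAF1A fell by 5.01-fold and CHAF1B by 2.4-fold under JQ1. Counts of CHAF1A were 1.36 ± 0.120 times those of CHAF1B in control, 1.65 ± 0.122 times with CAR, 0.656 ± 0.0768 with JQ1 and 0.906 ± 0.0878 with the Combination.

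**Figure D4:**
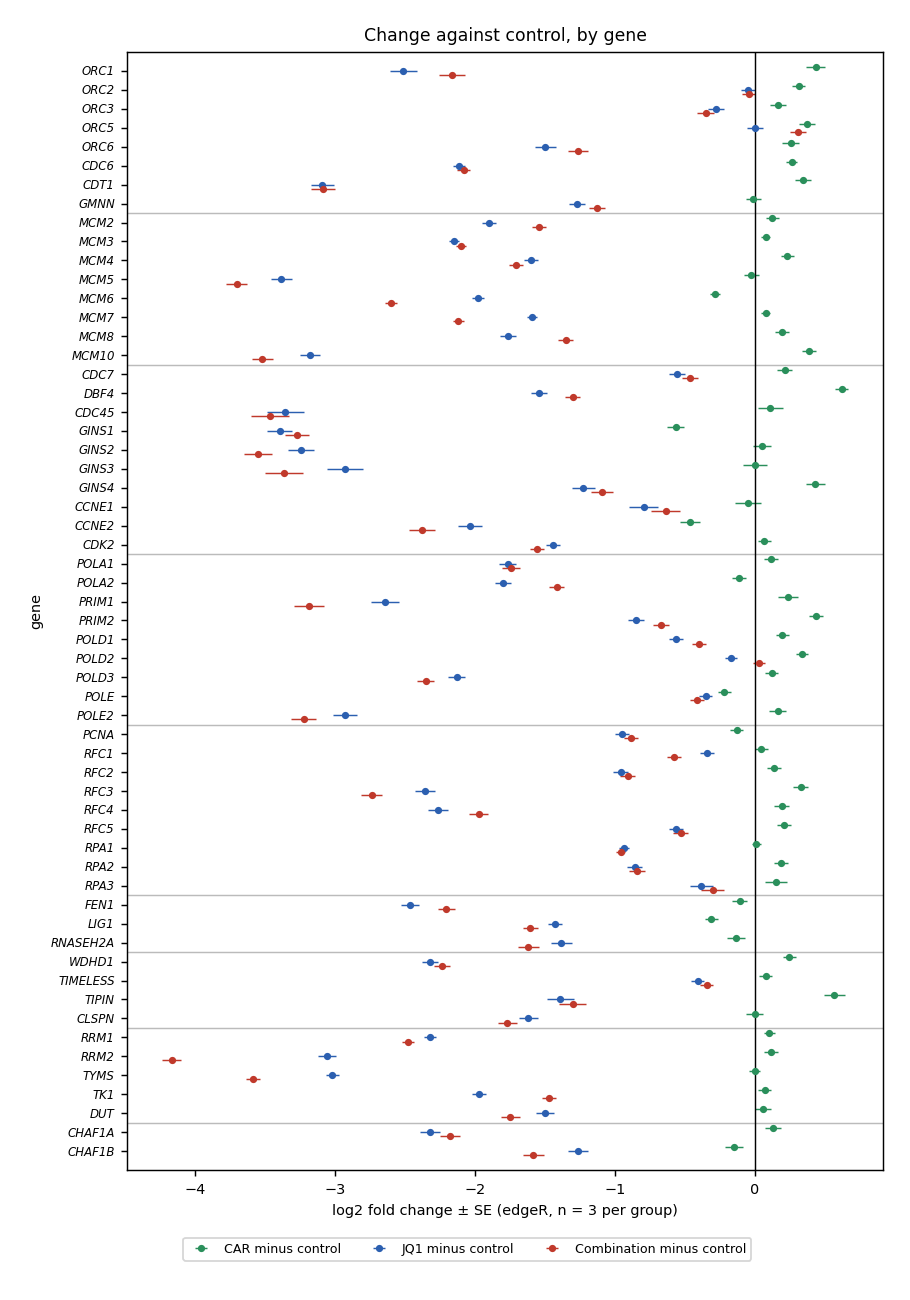
For each of the 58 genes, points give the log2 fold change against control with CAR, JQ1 and the Combination, and bars the standard error (edgeR, n = 3 per group). CAR points lie between -0.57 and 0.62, and JQ1 and Combination points reach -3.40 and -4.17.

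The changes under CAR alone were small, and most of those that passed were upward. Over all tested genes, 27.3% were called higher and 30.1% lower. In origin recognition and licensing 7 of 8 genes rose. Among them were ORC1 (0.43 ± 0.07), ORC5 (0.37 ± 0.06), CDT1 (0.35 ± 0.06) and ORC2 (0.31 ± 0.05), while GMNN libraries overlapped control. GMNN did not pass (-0.01) but passed as lower with a length correction (-0.11). In the polymerase role 6 of 9 rose, led by PRIM2 (0.43 ± 0.05) and POLD2 (0.34 ± 0.04). MCM10 (0.39 ± 0.05), RFC3 (0.33 ± 0.06) and CDC6 (0.26 ± 0.04) rose too. The 7 genes that fell were GINS1 (-0.57 ± 0.06), CCNE2 (-0.46 ± 0.07), LIG1 (-0.31 ± 0.05), MCM6 (-0.28 ± 0.04), POLE (-0.22 ± 0.05), CHAF1B (-0.15 ± 0.06) and PCNA (-0.13 ± 0.05). All CAR libraries lay below all controls in each of these 7, and overall 24 of the 58 genes had every CAR library above every control (21.9% of all tested genes) and 13 had every one below (38.3%).

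The last 2 of the falls were the weakest. The PCNA call was lost without control 3 (-0.06), without CAR 1 (-0.11) and without CAR 2 (-0.13). It was also lost with only the groups compared (-0.12) and with control 3 and Combination 1 left out together (-0.06). The CHAF1B call had an edgeR adjusted p of 0.0498. It was lost when control 1, control 3, any CAR library, JQ1 1, JQ1 3, Combination 1 or Combination 2 was left out. The values were then -0.16 to -0.11. The CHAF1B call was also lost with DESeq2 (-0.15), no filter (-0.14), a replicate block (-0.15) and only the groups compared (-0.14). With control 3 and Combination 1 left out together it was lost too (-0.11). Among the genes that rose, POLD3 lost its call in 9 settings, POLE2 in 7, RFC2 in 6 and ORC3 in 5. RRM1 lost it in 4, MCM2 in 3, RFC4 in 2 and PRIM1 in 1. RRM1 and MCM2 both lost it with total-count and upper-quartile scaling. RRM1 also lost it without control 1 (0.09) or CAR 3 (0.08), and MCM2 without CAR 1 (0.12). Of the 35 calls under CAR, 25 were kept in every setting tried.

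The Combination and JQ1 were compared with the same control libraries. In CPM, 57 of the 58 genes had every Combination library below every control library (51.2% of all tested genes) and 0 had them above (33.3%). RRM2 fell furthest (-4.17 ± 0.07), followed by MCM5 (-3.70 ± 0.08), TYMS (-3.58 ± 0.05), GINS2 (-3.55 ± 0.10) and MCM10 (-3.52 ± 0.08). ORC5 rose (0.31 ± 0.06, edgeR adjusted p = 3.94e-05), although in CPM its Combination libraries overlapped control, and with total-count scaling the call was lost (0.10). ORC2 (-0.04 ± 0.05) and POLD2 (0.03 ± 0.04) did not pass. POLD2 passed as higher without control 3 (0.08) and as lower with total-count scaling (-0.18), and ORC2 passed as lower with total-count scaling (-0.25), upper-quartile scaling (-0.12) and a length correction (-0.12). Against CAR, the Combination lowered 57 of the 58 genes, where 43.0% of all genes were called lower and 42.4% higher, and 44 by at least 2-fold (19.9%). In CPM all 58 had every Combination library below every CAR library (49.9% of all tested genes), and 0 had them above (37.9%). ORC5 was the exception (-0.07 ± 0.06), and it passed as lower with total-count scaling (-0.21).

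Whether CAR added to JQ1 changed these genes was tested by setting the Combination against JQ1 alone. Here 13 of the 58 genes rose and 16 fell, beside 26.0% and 25.9% of all tested genes, so the share called was close to the background in both directions. The median was 0.02. Every Combination library lay above every JQ1 library in 7 genes and below in 21, beside 21.8% and 41.3% of all tested genes. Scaling to total counts gave 6 higher and 25 lower, and a length correction gave 10 and 22. Without Combination 1, the library with liver transcripts, 12 rose and 10 fell. The share over all tested genes was not taken in these settings, so these counts have no background to be read against. The genes that fell were led by RRM2 (-1.11 ± 0.09, edgeR adjusted p = 9.79e-10), the single member past 2-fold (2.44% of all tested genes). MCM6 (-0.62 ± 0.05), TYMS (-0.56 ± 0.06), PRIM1 (-0.54 ± 0.16), MCM7 (-0.53 ± 0.04) and RFC3 (-0.38 ± 0.10) followed. The Combination libraries lay below all JQ1 libraries in each of these 6 genes.

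The genes that rose were led by TK1 (0.50 ± 0.05, edgeR adjusted p = 7.35e-08), MCM8 (0.41 ± 0.06), POLA2 (0.39 ± 0.07), MCM2 (0.36 ± 0.05) and ORC1 (0.35 ± 0.12). Of these, ORC1 lost its call without JQ1 2 (0.20), without Combination 3 (0.24) and with total-count scaling (0.26). Its Combination and JQ1 libraries overlapped. The other 4 had every Combination library above every JQ1 library. DBF4 (0.24 ± 0.06) and FEN1 (0.26 ± 0.07) also rose, and with total-count scaling lost their calls (0.15 and 0.17). MCM5 (-0.32 ± 0.11) fell, but lost its call without JQ1 1 (-0.29), JQ1 2 (-0.28), Combination 1 (-0.23) or Combination 2 (-0.24). MCM10 (-0.34 ± 0.11) did so without JQ1 1 (-0.30), Combination 1 (-0.26) or Combination 2 (-0.29), and CCNE2 (-0.34 ± 0.12) without JQ1 1 (-0.23), Combination 1 (-0.29) or Combination 2 (-0.28). Of the 29 calls in this comparison, 15 were kept in every setting tried. All 4 fork protection genes, CDC6 (0.04) and CDT1 (0.00) did not pass.

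**Figure D5:**
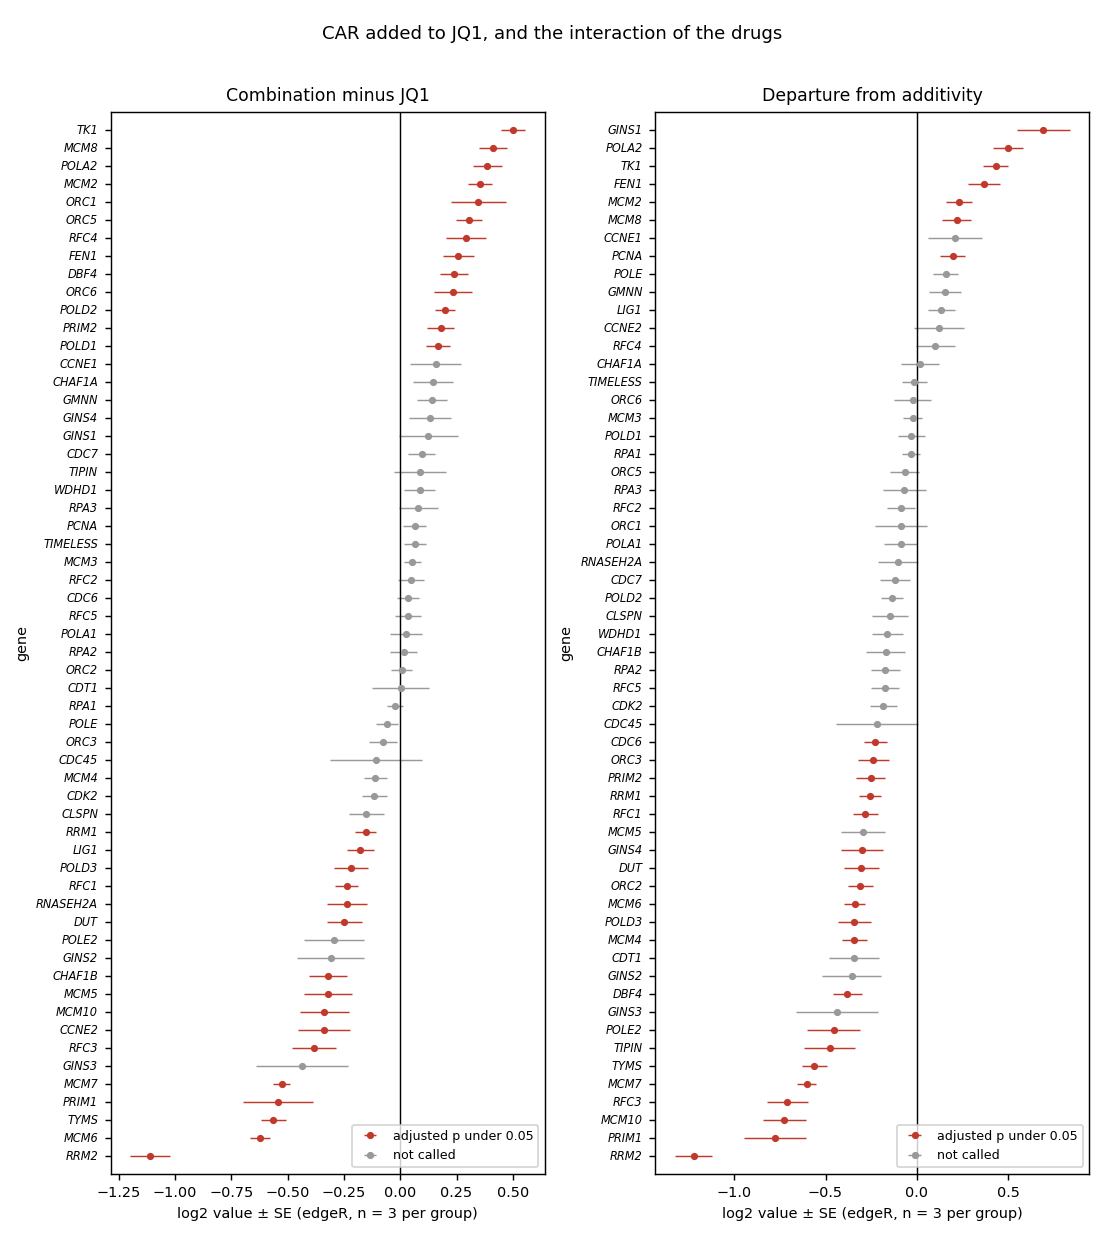
The left panel gives the log2 change of the Combination against JQ1 and the right panel the departure from additivity (Combination minus CAR minus JQ1 plus control) for each gene, ordered by value, with standard errors (edgeR, n = 3 per group). Red points passed the threshold. RRM2 lies lowest in both panels, at -1.11 and -1.22, and TK1 and POLA2 are high in both.

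The interaction term asks whether the Combination differs from the sum of the separate log2 changes. It was negative and called for 20 genes and positive and called for 7, beside 18.2% and 20.1% of all tested genes. The most negative was RRM2 (-1.22 ± 0.10, edgeR adjusted p = 1.09e-08), followed by PRIM1 (-0.78 ± 0.17), MCM10 (-0.72 ± 0.12), RFC3 (-0.71 ± 0.11), MCM7 (-0.60 ± 0.05) and TYMS (-0.56 ± 0.07). In MCM10, RFC3 and PRIM1 CAR alone had raised the gene and the Combination lay below JQ1. The most positive was GINS1 (0.69 ± 0.15, edgeR adjusted p = 0.000779), which CAR alone had lowered and which did not pass between the Combination and JQ1 (0.12 ± 0.13). POLA2 (0.50 ± 0.08), TK1 (0.43 ± 0.07) and FEN1 (0.37 ± 0.09) followed. CDT1 did not pass (-0.34 ± 0.14, edgeR adjusted p = 0.0555). It passed without control 3 (-0.40) or Combination 3 (-0.43), with total-count scaling (-0.37) and with a length correction (-0.37).

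Genes of the same pathways outside the 58 were taken from 3 lists. The genes named from each list are up to 3 in each direction with the lowest adjusted p, which are not always the largest changes. Of 28 tested origin and fork factors (of 29 listed, CHTF8 not being in the tables), JQ1 lowered 21 and raised 7, beside 42.2% and 41.5% of all tested genes, with a median of -0.97. Among the falls were ASF1B, a histone chaperone (-2.77 ± 0.06), MTBP, which acts in origin firing (-3.63 ± 0.09), and RNASEH2B (-3.00 ± 0.09). The largest fall was that of TOP2A (-4.02 ± 0.08), a topoisomerase, named after its value was seen. Among the rises were RNASEH2C (1.03 ± 0.04), LRWD1, which binds the origin recognition complex (1.16 ± 0.06), and ORC4 (0.87 ± 0.05). The 3 subunits of RNase H2 therefore went in different directions: RNASEH2C stood at 70.8, 70.4 and 75.1 CPM in control, 77.1, 74.1 and 75.7 with CAR, 137, 131 and 137 with JQ1 and 163, 175 and 175 with the Combination, and RNASEH2B at 42.8, 41.4 and 45.4 CPM in control, 36.6, 36 and 36.7 with CAR, 5.1, 4.52 and 5.33 with JQ1 and 4.11, 2.41 and 3.003 with the Combination. ORC4, a subunit of the same complex as ORC1, stood at 57.2, 56.2 and 56 CPM in control, 54.7, 48.7 and 55.3 with CAR, 98.6, 96.3 and 90.4 with JQ1 and 99.4, 95.6 and 91.2 with the Combination, higher with JQ1 in every library.

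CAR raised 11 and lowered 7 of these 28, beside 27.3% and 30.1% of all tested genes, with ASF1A (0.87 ± 0.06), TOP1 (0.36 ± 0.04) and CDC25A (0.55 ± 0.07) among the rises and TOP2B (-0.55 ± 0.04), ASF1B (-0.40 ± 0.05) and POLD4 (-0.30 ± 0.08) among the falls. Against JQ1, the Combination raised 5 and lowered 7, neither above the background of 26.0% and 25.9%. ASF1A (0.77 ± 0.06), RNASEH2C (0.43 ± 0.04) and RECQL4 (0.43 ± 0.07) rose, and TOPBP1 (-0.59 ± 0.06), TOP2A (-0.64 ± 0.10) and RNASEH2B (-0.56 ± 0.15) fell, the last of these not with a length correction (-0.48). ASF1A stood at 33.3, 31.5 and 32.8 CPM in control, 57.7, 55.3 and 58.1 with CAR, 40.5, 38.5 and 38.6 with JQ1 and 67.6, 63.3 and 58.2 with the Combination, higher in both groups given CAR than in the matching group without it.

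Of 14 genes of the ubiquitin ligases that turn licensing factors over, JQ1 lowered 8 and raised 4, beside the background of 42.2% and 41.5%. The largest fall was that of UBE2C (-4.43 ± 0.10), named after its value was seen. DTL, the adaptor through which CUL4 ligases destroy CDT1, stood at 101, 104 and 97.3 CPM in control, 94.7, 99.7 and 104 with CAR, 14, 13.7 and 15.4 with JQ1 and 9.97, 11.5 and 11.3 with the Combination and changed by -2.69 ± 0.06. CDC20, an activator of the anaphase promoting complex, stood at 174, 168 and 186 CPM in control, 295, 285 and 292 with CAR, 14.2, 12.2 and 11.8 with JQ1 and 18.2, 15.1 and 20.5 with the Combination and changed by -3.67 ± 0.07. FBXO5, which inhibits that complex, changed by -1.95 ± 0.07. FBXW7, through which cyclin E is destroyed, stood at 18.9, 18.9 and 16.7 CPM in control, 20.9, 19.5 and 19 with CAR, 41.4, 39.5 and 41 with JQ1 and 31, 30.2 and 27.6 with the Combination and rose (1.28 ± 0.07), as did SKP1 (0.79 ± 0.04) and CUL4B (0.64 ± 0.04). CAR raised 7 and lowered 4 of the 14 (background 27.3% and 30.1%), with CDC20 (0.79 ± 0.06), USP7 (0.36 ± 0.04) and CUL1 (0.31 ± 0.04) up and CUL4B (-0.47 ± 0.04), FBXO5 (-0.44 ± 0.06) and SKP2 (-0.29 ± 0.05) down. Against JQ1, where the background was 26.0% higher and 25.9% lower, the Combination raised 4, among them CDC20 (0.58 ± 0.09), USP7 (0.30 ± 0.04) and SKP1 (0.30 ± 0.04). It lowered 4, among them SKP2 (-0.40 ± 0.06), FBXW7 (-0.37 ± 0.06) and CUL4B (-0.32 ± 0.04).

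Of 32 other nucleotide supply genes, JQ1 lowered 24 and raised 5 (background 42.2% and 41.5%), with a median of -0.84. The largest fall was that of DTYMK (-2.38 ± 0.08), which makes dTDP, named after its value was seen. Among the falls were those of the folate enzymes MTHFD1 (-1.53 ± 0.04) and SHMT2 (-1.39 ± 0.04) and of CTPS1 (-1.33 ± 0.05), which makes CTP. SAMHD1, which breaks down deoxynucleoside triphosphates, stood at 137, 133 and 129 CPM in control, 95.2, 94 and 96.8 with CAR, 319, 313 and 301 with JQ1 and 229.8, 222 and 231 with the Combination and rose (1.35 ± 0.04). RRM2B (0.81 ± 0.05) and IMPDH2, of guanine nucleotide synthesis (0.68 ± 0.04), rose as well.

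Under CAR, 21 of the 32 rose and 7 fell (background 27.3% and 30.1%), with a median of 0.25. PAICS, of purine synthesis, stood at 369, 367 and 379 CPM in control, 549, 537 and 564 with CAR, 178, 176 and 175 with JQ1 and 154, 162 and 156 with the Combination. CAD, of the pyrimidine pathway, stood at 220.4, 222 and 188 CPM in control, 334, 326 and 321 with CAR, 154, 156 and 156 with JQ1 and 163, 171 and 172 with the Combination. TK2, the mitochondrial thymidine kinase, stood at 42.4, 43.1 and 41.9 CPM in control, 17.9, 18.6 and 19.1 with CAR, 38.7, 36.8 and 34.8 with JQ1 and 21.2, 20.4 and 20.1 with the Combination. PAICS (0.63 ± 0.03), CAD (0.70 ± 0.05) and IMPDH2 (0.65 ± 0.04) were among the rises, and TK2 (-1.13 ± 0.06), SAMHD1 (-0.41 ± 0.04) and RRM2B (-0.39 ± 0.05) among the falls. SAMHD1 and RRM2B thus fell with CAR and rose with JQ1. Against JQ1, the Combination raised 10 of the 32 (26.0% of all tested genes), among them SHMT2 (0.37 ± 0.05), PFAS (0.37 ± 0.07) and ADSL (0.26 ± 0.05). It lowered 7 (25.9% of all tested genes), among them TK2 (-0.75 ± 0.06), SAMHD1 (-0.36 ± 0.04) and MTHFD1 (-0.32 ± 0.05). TK2 was lower in every library given CAR, alone or with JQ1, than in any library without it.

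Some of these counts may include reads of related sequences. Of the 58 genes, 10 share exon bases with another gene of the tables and 10 have pseudogenes named after them, DUT with 8 and PCNA, RPA2 and RRM2 with 3 each. Reads that fit several places may have been dropped or split by the counting, and the share was not tested.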

How the data were processed

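The authors deposited 1 table per library, which lists for each gene symbol the raw count of reads. Per the submitters' processing notes, Trimmomatic, HISAT2, HTSeq and the build hg38 were used, and per the labels' protocols libraries came from a stranded poly(A) mRNA kit. Neither gives versions, the annotation or the strand setting. From the deposited counts, edgeR 4.0.16 (R 4.3.3) kept genes by filterByExpr (minimum count 10, minimum total 15). These were scaled with TMM factors (0.921 to 1.08) and fitted with a robust quasi-likelihood model on all 12 libraries (8 residual degrees of freedom, common biological coefficient of variation 0.0408). The 6 contrasts were adjusted by Benjamini-Hochberg over 12645 genes each, and a gene was called at an adjusted p under 0.05. CPM used library totals, not TMM, so CPM and fitted changes can differ, by a median of -0.21 log2 for the Combination against control. Positions and lengths are from GENCODE v29, a length being that of the merged exons of a gene's protein-coding transcripts, or of any transcripts where it has none.

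The 58 genes, the other lists and the tests were chosen with earlier results of these data known. Values in every library are given for 45 members: in each role the largest and smallest JQ1 change, members called against the direction of most, the 5 largest and 5 smallest called changes of each contrast, and 10 genes by name. From each other list, up to 3 called genes by adjusted p per direction were named. Subunit ratios were chosen after values were seen. Alternatives were RLE size factors, total-count and upper-quartile scaling, DESeq2 1.42.0, no filter, a replicate block, only the groups compared, each library left out, control 3 and Combination 1 left out together, and length-corrected offsets on 12379 genes. The pipeline was tested on simulated counts.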

Additional observations from a re-analysis of the deposited data

Results flagged for a closer look

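For 27 of the 58 genes the effect of CAR differed between cells without JQ1 and cells with it, by the interaction term of edgeR's quasi-likelihood test at a Benjamini-Hochberg adjusted p under 0.05. Over all tested genes, 20.1% were called positive and 18.2% negative. The log2 departure from additivity was negative for 20 genes. Among the MCM genes it was -0.72 for MCM10, -0.60 for MCM7, -0.34 for MCM4 and -0.34 for MCM6, and positive for MCM8 (0.22) and MCM2 (0.23). Nucleotide supply gave -1.22 for RRM2, -0.56 for TYMS, -0.31 for DUT and -0.26 for RRM1, and 0.43 for TK1. Polymerase and primase subunits gave -0.78 for PRIM1, -0.46 for POLE2, -0.34 for POLD3 and -0.25 for PRIM2, and 0.50 for POLA2.

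The clamp loader subunits RFC3 (-0.71) and RFC1 (-0.28) were negative and the clamp PCNA (0.20) positive. Origin firing gave -0.38 for DBF4, -0.30 for GINS4 and 0.69 for GINS1. Licensing gave -0.31 for ORC2, -0.24 for ORC3 and -0.23 for CDC6. TIPIN, of fork protection, gave -0.48, and FEN1, of Okazaki fragment maturation, gave 0.37. Of the 27 calls, 21 were kept in every setting tried. The call was lost in 12 settings for GINS4, in 8 each for ORC3 and MCM8, in 7 for PCNA, in 2 for POLE2 and in 1 for MCM2.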

How the results depend on the processing

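Of 260 calls among the 58 genes over the 6 contrasts, 228 were kept in every setting tried, 32 were lost in at least 1 and 0 changed sign. All 56 calls under JQ1 and all 57 of the Combination against CAR were kept. The share over all tested genes was not taken in the alternative settings. Counts that moved by over 1.5 times were the genes lower under CAR (7, and 12 with length-corrected offsets), those higher in the Combination against control (1, 0 with total-count scaling and 2 without control 3, alone or together with Combination 1), and those of the Combination against JQ1 (13 higher and 16 lower, 6 and 25 with total-count scaling, and 10 lower without Combination 1). Leaving out each library in turn gave 25 to 33 higher and 5 to 9 lower for CAR, 0 higher and 56 lower for JQ1, 1 to 2 higher and 55 lower for the Combination against control, 10 to 14 higher and 10 to 17 lower for the Combination against JQ1, 0 higher and 57 lower against CAR, and 5 to 8 positive and 18 to 26 negative for the interaction. Changes near 0 that did not pass reversed. For ORC5 under JQ1 (0.001288) the value was -0.00604 with RLE size factors and with DESeq2, -0.0587 with upper-quartile scaling, -0.118 with total-count scaling, and ran from -0.027 to 0.0384 with a library left out. For POLD2 in the Combination against control (0.0302) it was -0.0422 with upper-quartile scaling, -0.177 with total-count scaling and -0.00826 with length-corrected offsets, and ran from -0.00308 to 0.0828 with a library left out. For GMNN under CAR (-0.0122) it was 0.0497 with control 3 and Combination 1 left out together, and ran from -0.04353 to 0.05166 with a library left out. The cause of these changes was not tested. Samples that share a replicate number did not deviate together (correlations of -0.045 to 0.056 over 18 pairs). With so few libraries per group, this cannot tell whether samples of the same number shared a culture or a day. A fit with the replicate block called 29 higher and 6 lower for CAR, 0 and 56 for JQ1, 1 and 55 for the Combination against control, 13 and 16 against JQ1, 0 and 57 against CAR, and 7 positive and 19 negative for the interaction. The lowest count of a member in any library was 28.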
